A study of Mus musculus with 4 samples.

Results

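The AP-1 family genes examined here were 10 genes taken by symbol: Fos, Fosb, Fosl1, Fosl2, Jun, Junb, Jund, Batf, Jdp2 and Atf3. All 10 were found once each among the 22367 protein-coding genes of GENCODE release M1 on mm9. A Wapal-binding site was counted for a gene when its centre lay within 100 kb of the transcription start site (TSS). The 10 genes had 9 such sites, of 8323 in the genome. The question was how sites lie around the relatives of c-Fos (Fos), the gene whose distal site the study examined in detail, so Fos was listed with its site already known. The cells were mouse embryonic stem cells (ESCs) that carry the biotin ligase BirA. In 2 independently derived lines, each 1 clone, a Flag and biotin tagged Wapal cDNA (FB Wapal) was expressed in addition to the endogenous gene. ESCs with BirA and no tagged Wapal were the negative control, and sheared genomic DNA was the input, which the labels describe as from cells with tagged Wapal. Regions were recovered with streptavidin, and 1 combined list of both FB Wapal clones was used, so no value has a spread between replicates and no test was made. The lists hold no read counts, and the depth behind a single region is unknown.

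AP-1 is a dimer of basic leucine zipper proteins. Fos proteins pair with Jun proteins through the zipper and bind a short palindromic element in promoters and enhancers, whereas Jun proteins can also pair with each other. Batf, Jdp2 and Atf3 join the same network and often restrain AP-1 activity. Many of these genes are immediate-early genes, silent in resting cells and switched on within minutes by growth factors or stress. Wapal releases the cohesin ring from chromatin, and cohesin accumulates where CTCF is bound, at sites that can anchor DNA loops in a manner that depends on the direction of the CTCF motif.

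A Wapal-binding site within 100 kb of the TSS was present for 8 of the 10 genes, against 59.9% of all protein-coding genes, and Junb and Atf3 had none. Fos, Fosb and Jdp2 had 2 sites each, and Fosl1, Fosl2, Jun, Jund and Batf had 1 each. Genes with 2 or more sites made up 26.9% of all protein-coding genes, against 3 of these 10. Fos was the 1 member with a site within 20 kb, a distance at which 17.9% of all protein-coding genes had one. The median distance from a TSS to the nearest site was 52.6 kb for the members and 73.0 kb for all protein-coding genes. None of the 9 sites lay inside the body of a member or within 20 kb of the TSS of any member other than Fos. The gene bodies ran from 1807 bp at Junb to 40462 bp at Jdp2. The share of all genes with a site in their own body was not computed. These counts come from single positions in 1 list and are descriptions. In the gene-by-gene map, 5 of the 8 members with a site have sites to the right of the TSS alone. Of the 13408 protein-coding genes with a site within 100 kb, 4581 had all of theirs downstream of the TSS.

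**Figure D1:**
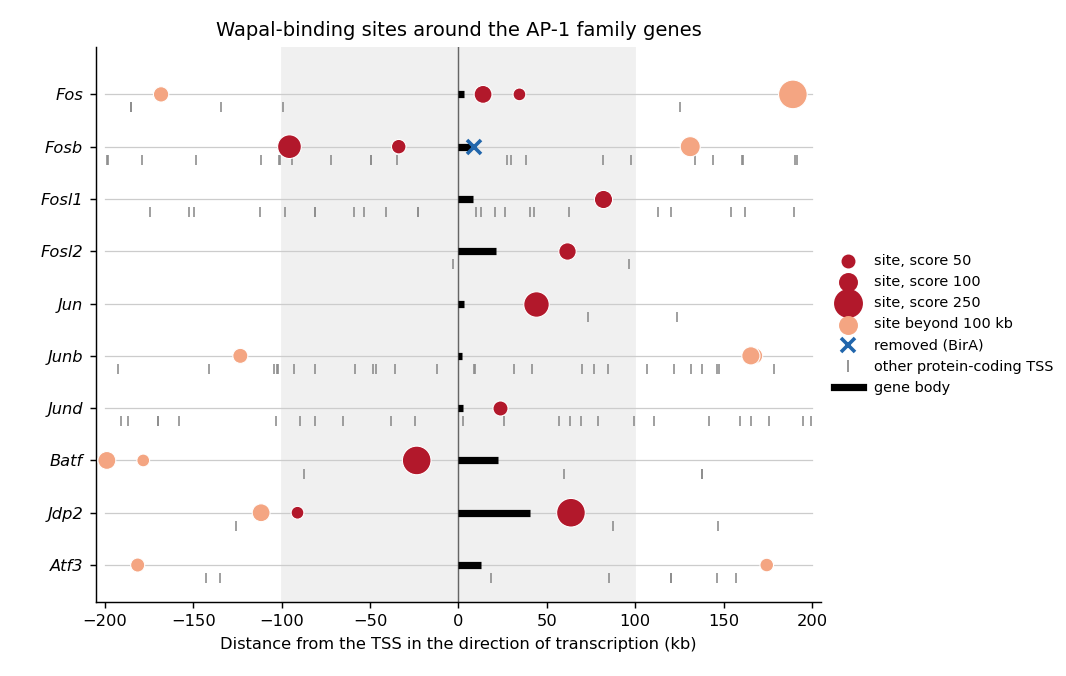
Each row is 1 AP-1 family gene with its TSS at 0, and the x axis gives distance in kb in the direction of transcription; circles are Wapal-binding sites with area proportional to the MACS score, black bars are gene bodies, paler circles are sites beyond the window, grey ticks are TSSs of other protein-coding genes, the shaded band is the window of 100 kb, and the cross is a region removed because BirA cells had it too. Fos has the nearest site, at 14.0 kb, and Junb and Atf3 have none in the band.

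The sequences around the CTCF core motif are shown first. All member sites held it with at most 1 mismatch, as did 74.5% of all Wapal-binding sites, so it is not particular to these genes. The motif was searched on both strands as a consensus of 12 bases, some positions of which allow alternatives. Each line gives the best match in the site nearest to a member, 5′ to 3′ on the strand of the motif, from mm9, with the 12 bases of the core in capitals and 15 bases on either side.
Fos, chr12:86828863-86828904, reverse strand, exact: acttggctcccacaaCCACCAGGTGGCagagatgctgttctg
Fosb, chr7:19928974-19929015, reverse strand, 1 mismatch: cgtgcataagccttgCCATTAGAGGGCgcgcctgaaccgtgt
Fosl1, left match, chr19:5529411-5529452, forward strand, exact: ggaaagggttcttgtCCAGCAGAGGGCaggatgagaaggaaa
Fosl1, right match, chr19:5529497-5529538, forward strand, exact: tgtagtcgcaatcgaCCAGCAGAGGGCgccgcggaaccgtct
Fosl2, chr5:32500269-32500310, reverse strand, 1 mismatch: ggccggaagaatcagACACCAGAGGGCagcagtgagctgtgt
Jun, chr4:94675016-94675057, forward strand, 1 mismatch: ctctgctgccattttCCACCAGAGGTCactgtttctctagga
Jund, left match, chr8:73244785-73244826, forward strand, 1 mismatch: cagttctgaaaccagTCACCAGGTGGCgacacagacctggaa
Jund, right match, chr8:73245032-73245073, reverse strand, 1 mismatch: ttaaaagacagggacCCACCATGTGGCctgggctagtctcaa
Batf and Jdp2, chr12:87004005-87004046, reverse strand, 1 mismatch: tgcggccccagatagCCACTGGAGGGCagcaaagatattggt

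All 9 member sites held the core motif with at most 1 mismatch, as did 74.5% of all Wapal-binding sites. An exact match was present in 3 of the 9, at Fos, at Fosl1 and in the farther site of Fosb, against 28.3% of all sites. The site of Fosl1 held 2 exact matches with the same 12 bases, 86 bp apart and on the same strand. In the site of Jund the 2 best matches lay on opposite strands. Compared with the core at the distal site of Fos, the cores of Jund and of the farther Fosb site shared 11 of 12 bases. Those of Fosl1, Fosl2 and Jun shared 9. Those of the second site of Fos, the nearer Fosb site and the site between Jdp2 and Batf shared 8. A match is a description of sequence and does not by itself show that CTCF was bound. From CTCF ChIP-seq, the paper reports that nearly all Wapal-binding sites overlap CTCF sites, and it describes the distal site of Fos as a combined site. CTCF regions were not compared here.

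Fos, on the forward strand with its TSS at 86814840 on chromosome 12, encodes the founding partner of Jun in AP-1. Its distal site, at chr12:86828397-86829204, was 808 bp wide and centred 14.0 kb downstream of the TSS, 10.2 kb past the gene end. Its MACS score, which is 10 times the −log10 p-value that the peak caller gave the region, was 109 and ranked 2413 of 8323, so that 29.0% of all sites scored higher. The second site of Fos, at chr12:86848966-86849774, lay 34.5 kb downstream of the TSS with a score of 55.6, rank 7272 of 8323. Both lay past the end of the gene with no other protein-coding TSS in between, and Fos was the gene with the nearest protein-coding TSS to each. The core motif of the distal site lay 83 bp from the centre of the site and read toward the TSS. That of the second site was on the forward strand and read away from it. Upstream of Fos, the first site was 168 kb away, so that the stretch without a site around the TSS spanned 182 kb, and 75.4% of protein-coding genes lay in a stretch at least that long. A further exact core motif lay 23.0 kb downstream of the TSS, between the 2 sites, and no site covered it.

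Jdp2 and Batf, repressors or modulators of AP-1 that pair with Jun proteins, follow Fos on the same strand, with TSSs at 86940366 and 87027619. The Fos distal site lay 112 kb upstream of the Jdp2 TSS and so just outside its window. The second Fos site lay just inside, at 91.0 kb upstream of Jdp2. The site at chr12:87003594-87004495 lay between the other two genes, 63.7 kb downstream of the Jdp2 TSS, 22.8 kb past the end of that gene, and 23.6 kb upstream of the Batf TSS. Its score of 279 ranked 121 of 8323 and was the highest of the 9 member sites, 171 above that of the Fos distal site. Its core motif was on the reverse strand and read toward Jdp2 and away from Batf. Jdp2 thus lay between core motifs that face each other, and Batf between motifs that face apart, with the next site downstream of Batf 446 kb from its TSS. Because of the shared sites, the 11 combinations of a member and a site came from 9 sites, 2 of which were counted for 2 members.

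**Figure D2:**
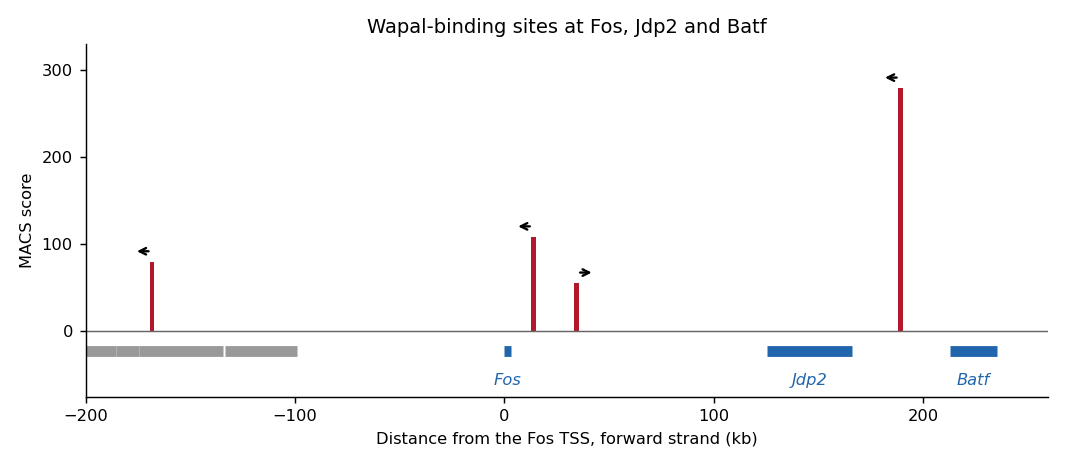
The x axis gives distance in kb from the Fos TSS along the forward strand of chromosome 12 and the bars give the MACS score of each Wapal-binding site; arrows show the direction of the best core motif, blue boxes are Fos, Jdp2 and Batf, and grey boxes are other protein-coding genes. The highest bar, with a score of 279, stands between Jdp2 and Batf.

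Among the other Fos proteins, the site nearest to Fosb lay upstream and those nearest to Fosl1 and Fosl2 downstream. Fosb is transcribed from the reverse strand of chromosome 7 and starts at 19895394. Its nearer site, at chr7:19928821-19929429, lay 33.7 kb upstream with a score of 71.9, and it was the narrowest of the 9 at 609 bp. That site was in the promoter of Ercc1, a DNA repair gene, 1.00 kb from its TSS. The farther site, at chr7:19990483-19991372, had a score of 192 at 95.5 kb upstream and lay in the promoter of Klc3, with 5 protein-coding TSSs between it and Fosb. These were the 2 member sites in a promoter, defined as within 2 kb of a protein-coding TSS. The other 7 were extragenic, meaning outside promoters and protein-coding genes. Of all sites, 4.37% were in a promoter, 57.9% extragenic, 34.7% in an intron and 2.98% in an exon.

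Fosb was also the member with a region seen in the BirA control. A region of the FB Wapal list at chr7:19885663-19887076, 1414 bp wide with a score of 128, lay 9.03 kb downstream of the Fosb TSS, just past the gene end. It contained a BirA region of 534 bp and was therefore removed from the sites. No region was removed within 100 kb of the other 9 members, whose nearest BirA region was 671 kb or more from the TSS. Without the removal, Fosb would have been the second member with a site within 20 kb, at less than the distance of the Fos distal site.

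Fosl1 and Fosl2 encode Fra-1 and Fra-2, Fos relatives that lack the strong transactivation region of Fos. Fosl1, on chromosome 19 with its TSS at 5447703, had its site at chr19:5528958-5530303, 81.9 kb downstream. The site had a score of 113 and a width of 1346 bp, the widest of the 9, and 7 protein-coding TSSs lay between it and Fosl1, in a window that held 15 other protein-coding TSSs. Fosl2, on chromosome 5 with its TSS at 32438845, had its site at chr5:32499662-32500816, 61.4 kb downstream and 39.5 kb past the gene end, with a score of 103. No protein-coding TSS lay between Fosl2 and its site, and the nearest such TSS was that of Plb1. In score these sites were close to the distal site of Fos (113 and 103 against 109), and both lay at more than 4 times its distance, at ratios of 5.87 and 4.40.

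The Jun genes differed in the presence of a site. Jun, which encodes c-Jun, is read from the reverse strand of chromosome 4 and starts at 94718913. Its site at chr4:94674585-94675484 was 43.9 kb downstream with a score of 221, rank 307 of 8323 and 112 above that of the Fos distal site. Its core motif lay 2 bp from the centre of the site and read toward the Jun TSS, with no protein-coding TSS in between. The nearest protein-coding TSS to the site was that of Mysm1, at 29.2 kb. Jun, Fos and Jdp2 each had 1 other protein-coding TSS within 100 kb, and Fosl2, Batf and Atf3 had 2. The median over all protein-coding genes was 3. On the upstream side of Jun the next site was 819 kb away, and the stretch without a site spanned 863 kb, a length that 18.7% of protein-coding genes reached or exceeded.

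Jund, which encodes JunD, the Jun protein present in most resting cells, lies on chromosome 8 with its TSS at 73221638. Its site at chr8:73244376-73245442 lay 23.3 kb downstream with a score of 77.4 and was 2.71 kb from the TSS of Pde4c, with the TSS of 1 other gene, Gm11175, between it and Jund. After Fos, Jund and Batf had the nearest sites, at 23.3 and 23.6 kb. Junb, which encodes JunB, lies on the reverse strand of the same chromosome with its TSS at 87502617. Its nearest site was 123 kb upstream with a score of 76.98. It lay outside the window, although 2 exact core motifs lay within 100 kb, the nearer of them at -11.3 kb from the TSS. Junb shared its window with 14 other protein-coding TSSs and Jund with 12.

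Atf3, a stress-induced gene whose protein pairs with Jun proteins, had the most distant nearest site of the 10 members. Transcribed in reverse on chromosome 1 from a TSS at 193007219, it lay 174 kb from the nearest site downstream and 181 kb from the nearest upstream, with scores of 63.0 and 67.7. No exact core motif lay within 100 kb of Atf3 or of Jun. The downstream site was also the nearest of Batf3, at 89.5 kb from its TSS. The cumulative plot places the members along the distances of all protein-coding genes: 12.5% had a site at least as near as Fos, and 75.8% as near as Atf3.

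**Figure D3:**
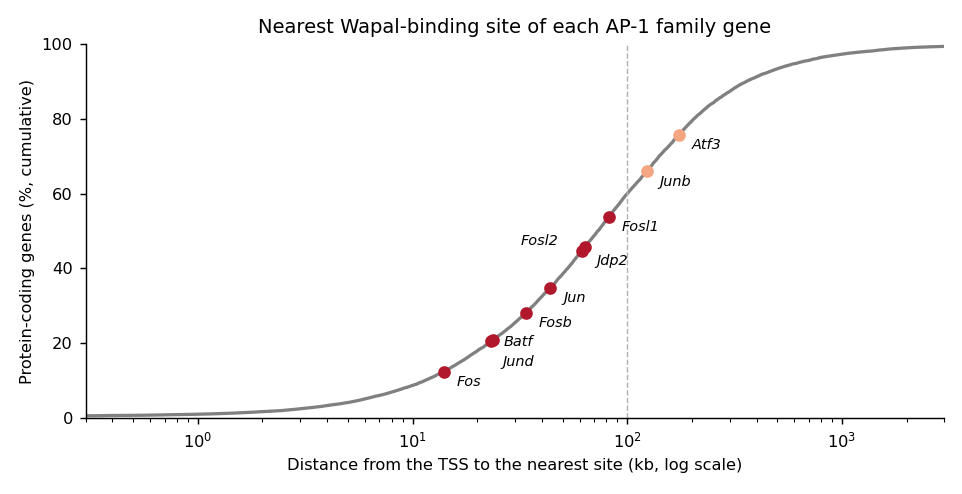
The grey line gives the cumulative percentage of protein-coding genes against the distance from TSS to nearest Wapal-binding site (kb, log scale), and points mark the 10 AP-1 family genes, in a lighter colour for Junb and Atf3, beyond the dashed line at 100 kb. The members spread from 14.0 kb at Fos to 174 kb at Atf3.

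When the other 8 sites were set beside the distal site of Fos, 4 had a higher score and 7 were wider. The second site of Fos was wider by 1 bp alone. Among all sites, 29.0% scored higher than the Fos distal site, which was at percentile 48.7 by width. The scores of the 9 ran from 55.6 to 279 with a median of 109, and the median of all sites was 81.4. A score of at least 100 was reached by 6 of the 9 sites and by 34.6% of all sites. With sites of that score alone, 7 of the 10 members had one within 100 kb (all that had a site except Jund), against 27.7% of protein-coding genes. Jdp2 and Batf were counted for the same site, and Fos was listed with its site already known. Widths ran from 609 to 1346 bp with a median of 900, and the median of all sites was 812. In base composition the Fos distal site had the highest G and C content of the 9, at 52.0%, and 5 of the 9 were above the upper quartile of all sites (47.8%). The site of Jun had the lowest, at 40.1%.

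**Figure D4:**
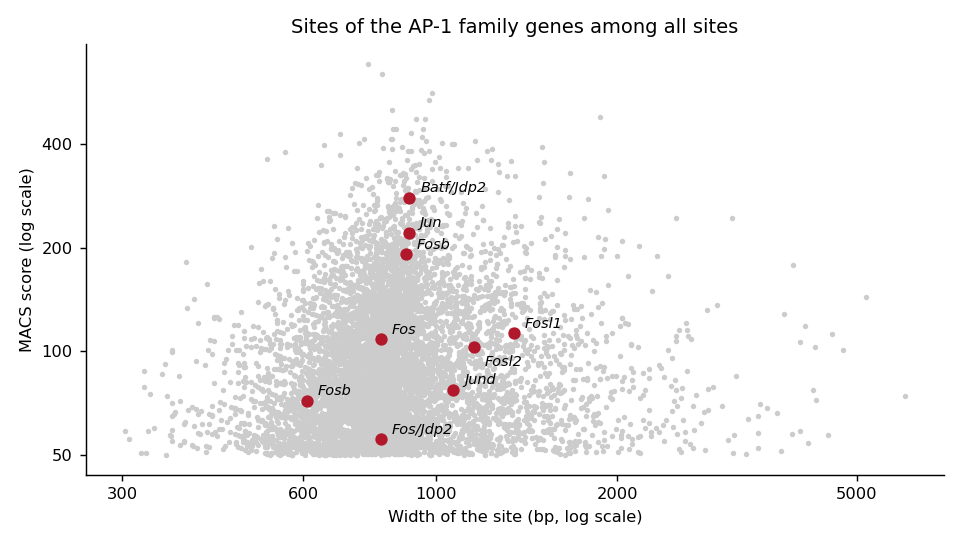
Each grey point is 1 of the 8323 Wapal-binding sites by width (bp, log scale) and MACS score (log scale), and red points are the 9 sites within 100 kb of an AP-1 family gene, labelled by gene. The Fos distal site lies near the median width, and the site between Jdp2 and Batf, the site of Jun and the farther site of Fosb lie above it and above the other member sites.

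On the side of the TSS, 5 of the 10 members (Fos, Fosl1, Fosl2, Jun and Jund) had sites downstream alone, against 20.5% of protein-coding genes. Sites inside a gene counted as downstream in that share. At these 5 members all the sites lay past the gene end, for which no share over all genes was computed. Of the 11 combinations of member and site, 7 were downstream and 4 upstream, and in 3 the TSS of another protein-coding gene lay in between. The member was the protein-coding gene with the nearest TSS in 3 of the 11, the 2 sites of Fos and the site upstream of Batf. The shares over all combinations of gene and site were not computed, so these counts of the 11 are descriptions. Among the 11, 2 sites were counted for 2 members each. For the sites on either side of a TSS at any distance, the direction of the best core motif could be assigned on both sides for 6 members. The motifs faced each other at Fosl2 and Jdp2, faced apart at Batf and Fosl1, and pointed the same way at Fos and Junb. Of the 11243 protein-coding genes with both directions assigned, 26.5% lay between motifs facing each other, 27.8% between motifs facing apart and 45.6% between motifs pointing the same way.

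Within 100 kb of the members lay 15 distinct exact core motifs, and 4 of them were in a site. Of these, 2 were in the same site of Fosl1 and 1 in the distal site of Fos. Of the exact core motifs of the genome, 18.9% were in a site. The AP-1 element itself, TGACTCA on either strand, was in 1 of the 9 sites, the nearer site of Fosb, and in 14.4% of all sites, against 13.7% of width-matched regions moved by 5 kb. The related cAMP response element, TGACGTCA, was in none of the 9 and in 0.721% of all sites.

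Other genes of the network were taken from fixed lists. Among 16 dimer partners from the basic leucine zipper class, 9 had a site within 100 kb and 3 within 20 kb. Those with the nearest sites were Atf7 at 3.71 kb (score 131), Bach2 at 9.61 kb (score 56.2) and Batf2 at 14.5 kb (score 63.3). Among 16 upstream kinases and factors, 10 had a site within 100 kb and 2 within 20 kb, and the nearest were at Elk4 (7.10 kb), Elk3 (19.4 kb) and Map2k1 (21.4 kb). Elk3 and Elk4 encode partners of serum response factor at the Fos promoter. In the same list, Elk1 and Srf (serum response factor) had no site within 100 kb, with the nearest at 615 and 244 kb. Of 14 other immediate-early genes, 8 had a site within 100 kb and 2 within 20 kb, and the nearest were at Ier3 (8.23 kb), Arc (19.9 kb) and Ctgf (29.8 kb). These counts stand beside the 59.9% and 17.9% of all protein-coding genes given above, and the median distance to the nearest site was 87.9 kb for the partners, 88.0 kb for the upstream genes and 59.4 kb for the immediate-early genes.

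The layout at Fos, with exactly 2 sites within 100 kb and both past the gene end, was present at 628 protein-coding genes outside these lists. By the sum of the absolute log2 differences in distance and score of the nearest site, the genes most like Fos were Mt3 (14.8 kb, score 97.2, sum 0.25), Fmod (11.7 kb, score 104, sum 0.31) and Gm9479 (13.5 kb, score 88.8, sum 0.34). The site nearest to Fmod was also the one nearest to Btg2 among the immediate-early genes.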

How the data were processed

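Biotin-mediated ChIP-seq was performed on 2 FB Wapal clones, BirA cells and an input. Reads were mapped by the authors with Bowtie against mm9. They called regions against input with MACS (version 1.4.2 in the submitters' processing notes, p of 1e-05) and deposited 1 list for FB Wapal and 1 for BirA, each region with a MACS score. How the clones were joined is not given in the sources used here. Scores are not comparable between the lists.

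Here, FB Wapal regions sharing at least 1 bp with a BirA region were removed (174 of 8497). Distances ran from the 5′ end of the gene to the centre of a site. Chromosome lengths and all regions were checked against the mm9 sequence. The members, the gene lists and the rule for named genes (all members, the 3 nearest of each list, the 3 genes most like Fos) were chosen with earlier results of these data known. The direction of flanking motifs, exact motifs without a site and HaeIII fragments were added after values were seen. No test was made, since 1 list per group gives no error, and microarray, 3C and ChIP-qPCR values were not used. The p-values of regions entered through the score alone. Primer sequences came from the paper's supplement. Scripts used Python 3.11.15, numpy 2.4.6, pandas 2.3.3, scipy 1.17.1 and matplotlib 3.10.9, and functions were checked on simulated data. Alternatives covered score, BirA removal, distance, TSS, window, merging and motif mismatches.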

Additional observations from a re-analysis of the deposited data

How the results depend on the processing

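No paired analysis was possible because both FB Wapal clones are joined in 1 list, which also leaves no single clone to omit. Of 40 recomputed values, 26 stayed within the limits and 14 moved. The limits were 1.5 times for counts, the 95% Wilson interval (59.3% to 60.6%) for the share of genes, and, with no error to set against them, no difference at all for distances. The interval treats genes as independent, although neighbours can share sites, so it served as a limit alone and measured no spread. With a score of at least 100, the combinations of member and site fell from 11 to 7, the median distance of the members rose to 72.8 kb and the share of protein-coding genes with a site fell to 27.7%. The window changed counts by construction: within 50 kb, 5 members had a site in 6 combinations, and within 200 kb there were 22 combinations. For all protein-coding genes, the share at these windows and the median distance at the higher score were not computed. Removing regions only where BirA covered at least 50% of them gave 2 members with a site within 20 kb, as did no removal, an alternative chosen after the data were seen, the added member being Fosb in both. Measured from the near edge, the Fos distal site was 13.6 kb from the TSS and the median of the members 52.1 kb. From the nearest transcript start these were 12.9 and 52.6 kb. Without mismatches, 3 of the 9 sites held the core motif, and over all annotated genes the share with a site was 55.1%. With no read counts, the precision of single regions is unknown.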

Other observations

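The assays designed at the Fos distal site could be placed on its sequence. The reverse primer of the ChIP-qPCR amplicon there is written below, 5′ to 3′, with the bases it shares with the exact CTCF core motif in capitals. It lies at chr12:86828864-86828883 on the reverse strand of mm9.
Fos site, reverse primer: GGTGGCagagatgctgttct
The primer covers 6 of the 12 bases of the core motif, and the amplicon of 125 bp lies wholly inside the site and ends within the motif.

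Chromosome conformation capture (3C) at Fos used HaeIII, an enzyme that cuts at GGCC. In the mm9 sequence the fragment with the anchor primer spans 86814735 to 86815056 on chromosome 12 and holds the Fos TSS. The primer named 14.3 lies inside the Wapal-binding site, in a fragment of 745 bp from 86829084 to 86829828. That fragment holds the last 121 bp of the site and not the core motif. The other 687 bp (85.0%), with the exact core motif, lie in the neighbouring fragment of 1576 bp from 86827508 to 86829083, and the primers named 12.7 and 12.8 both lie in it, 834 and 766 bp outside the near edge of the site. The nearest of the other near-side primers, 12.5, lies on its own fragment, which holds none of the site. Strain differences from the reference at HaeIII sites, the completeness of digestion and the 3C values themselves were not tested.

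Several exact core motifs within 100 kb of members were not in a site. At -96.1 kb from the Fosb TSS, an exact match began 133 bp past the end of the farther Fosb site, outside any protein-coding gene. At Fosl1, exact matches 16.2 kb downstream in an intron of Fibp and 40.3 kb downstream in the promoter of Mus81 were not in a site. Inside Jdp2, an exact match lay in an intron 28.4 kb from the TSS, also without a site.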
